A study of Mus musculus with 2 samples.

Results

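The most gene-dense 50 kb bins of the mouse autosomes were examined in Foxa2 HiChIP of liver from vehicle and GW4064 treated mice. A bin was taken when at least 6 mm10 protein-coding genes overlapped it, and bins with an Olfr, Vmn1r, Vmn2r, Krt, Pcdh or histone cluster gene were left out. The rule found 137 bins, and 4 of them lay within the first 2.95 Mb of their chromosome, where no autosome bin held a contact in either library, so 133 bins of 49264 autosome bins (0.270%) gave values. These gene-dense bins overlapped 860 of 20560 autosome protein-coding genes (4.18%). The median length of those genes was 5.78 kb, against 17.6 kb over all autosome protein-coding genes.

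Wildtype mice were gavaged once with vehicle, a mixture of propylene glycol and Tween 80, or with GW4064 in that vehicle, and liver was taken 4 h later. GW4064 is a synthetic agonist of FXR, the nuclear receptor for bile acids. In HiChIP, DNA ends that lie near each other in the nucleus are ligated and then enriched by immunoprecipitation, here with a rabbit antiserum against Foxa2, a forkhead pioneer factor of hepatocytes. Each group held 1 library, and the age, sex, dose and number of animals behind it are not stated in the sources used here. Depth was 22686004 contacts in vehicle and 29003442 in GW4064, or 1.28 times as many. With 1 library per group there is no replicate check and no test. All intervals are exact 95% intervals that cover counting error only, and a difference between the libraries cannot be told apart from an effect of GW4064.

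Gene-dense DNA lies mostly in the active compartment of the nucleus, in early replicating chromatin with many promoters, and such regions of different chromosomes often gather around nuclear speckles. Housekeeping genes, which nearly every cell uses, are frequent in it, and tandem families such as interferon or Hox genes also reach a high density. Whole liver holds mostly hepatocytes, in which both Foxa2 and FXR regulate metabolic genes. A HiChIP contact count reflects both proximity and recovery by the antiserum, and these cannot be told apart here.

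The 133 bins fell into 117 runs of neighbouring bins, of which 103 were single bins, 12 held 2 bins and 2 held 3. Chromosome 7 held 21 of them, chromosome 17 held 15, chromosome 11 held 14 and chromosome 19 held 11, while chromosome 12 held none. Of the bins, 88 overlapped 6 genes, 24 overlapped 7 genes and 21 overlapped 8 to 12 genes. Their surroundings were dense too, with a median of 43 genes (range 7 to 71) in the 21 bins centred on a gene-dense bin against a median of 6 around all autosome bins. In 17 of the 133 bins, 50% or more of the genes shared the first letters of their symbol or had only a number as a name (Gm or LOC), for example Ugt1a, Taar, Hoxa, Hoxd, Ifna, Apoc and Klk genes. This split into 17 bins led by 1 symbol root and 116 others was chosen after the gene names were seen.

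Promoters from bins at both ends of the range of contact ratios described below are shown as picked examples. They do not stand for all promoters of these bins, and the Ik and Prpf6 bins of the high end are not shown. Each sequence is from RefSeq (GRCm38.p6), runs 5' to 3' on the gene's own strand from 250 bases before to 50 bases after the start, and has its CG dinucleotides in capitals. Cnn2 (calponin 2, an actin-binding protein), Rpl18 (a protein of the large ribosomal subunit) and Daxx (a chaperone of histone H3.3) lie in 3 of the 5 bins with the lowest ratios. Gm35342 and Taar5, a trace amine receptor of the olfactory system, lie in 2 of the 5 bins with the highest. Whether Gm35342 belongs to a left-out family was not settled.
Cnn2, chr10:79988350-79988649, plus strand: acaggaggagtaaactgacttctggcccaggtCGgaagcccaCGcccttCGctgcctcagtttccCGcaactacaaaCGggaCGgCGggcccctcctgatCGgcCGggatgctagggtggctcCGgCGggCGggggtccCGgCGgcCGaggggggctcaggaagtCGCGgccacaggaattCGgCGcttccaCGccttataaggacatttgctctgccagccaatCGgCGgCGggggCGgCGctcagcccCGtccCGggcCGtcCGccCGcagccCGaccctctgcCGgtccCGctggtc
Rpl18, chr7:45717821-45718120, plus strand: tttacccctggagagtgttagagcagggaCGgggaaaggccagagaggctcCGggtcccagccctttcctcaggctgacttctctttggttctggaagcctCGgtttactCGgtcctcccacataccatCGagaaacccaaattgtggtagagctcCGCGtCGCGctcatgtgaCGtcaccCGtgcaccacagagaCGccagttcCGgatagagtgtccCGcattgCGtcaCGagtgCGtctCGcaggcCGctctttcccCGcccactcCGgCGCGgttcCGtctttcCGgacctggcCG
Daxx, chr17:33909195-33909494, plus strand: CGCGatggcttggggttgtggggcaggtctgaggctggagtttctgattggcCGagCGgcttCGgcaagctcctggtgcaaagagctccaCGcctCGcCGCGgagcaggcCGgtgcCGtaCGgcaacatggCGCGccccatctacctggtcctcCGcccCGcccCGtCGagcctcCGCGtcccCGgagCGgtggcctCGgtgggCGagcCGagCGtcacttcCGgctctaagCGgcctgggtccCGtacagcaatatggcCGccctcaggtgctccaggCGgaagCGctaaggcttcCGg
Gm35342, chr16:89274259-89274558, plus strand: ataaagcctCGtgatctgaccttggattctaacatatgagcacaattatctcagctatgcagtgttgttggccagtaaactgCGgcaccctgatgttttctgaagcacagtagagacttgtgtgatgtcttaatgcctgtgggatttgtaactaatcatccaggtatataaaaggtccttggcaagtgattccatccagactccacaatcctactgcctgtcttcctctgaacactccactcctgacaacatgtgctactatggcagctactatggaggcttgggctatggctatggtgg
Taar5, chr10:23970456-23970755, plus strand: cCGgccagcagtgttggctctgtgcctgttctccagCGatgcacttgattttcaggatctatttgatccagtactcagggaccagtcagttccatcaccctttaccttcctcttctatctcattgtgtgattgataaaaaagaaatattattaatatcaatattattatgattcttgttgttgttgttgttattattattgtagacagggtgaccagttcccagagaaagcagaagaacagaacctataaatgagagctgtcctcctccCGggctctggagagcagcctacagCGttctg
The Cnn2 sequence held 33 CG dinucleotides at 70.7% GC, the Rpl18 sequence 26 at 61.3% and the Daxx sequence 33 at 69.7%. Those of Gm35342 and Taar5 held 2 and 4, at 45.7% and 42.7% GC. Both ends also held promoters of the other kind. That of Grin3b, in the Cnn2 bin, held 3 at 48.3% GC. That of Rgs19, in the Prpf6 bin of the high end, held 27 at 66.7%. Rpl18 shares its promoter with Sphk2, a sphingosine kinase, whose start at 45718002 on the minus strand faces away from that of Rpl18 at 45718071.

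Gene-dense bins held fewer contacts in the GW4064 library than in the vehicle library in all 4 classes of contact, although the GW4064 library was deeper. Contacts within a bin numbered 12590 in vehicle and 12001 in GW4064. Local contacts, those with other bins of the chromosome up to 1 Mb away, numbered 22228 and 21449. Cis contacts over 1 Mb away numbered 21772 and 19617, and contacts with other chromosomes 27085 and 22361. In each class the count went down where the whole library went up.

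After scaling to equal totals of the class over chromosomes 1 to 19 and X, the log2 ratio of GW4064 to vehicle was -0.54 (-0.57 to -0.50) for contacts within a bin. It was -0.56 (-0.59 to -0.53) for local contacts, -0.48 (-0.51 to -0.45) for cis contacts over 1 Mb and -0.35 (-0.37 to -0.32) for contacts between chromosomes. Over all autosome bins together these 4 ratios lay between -0.01 and 0.00. Bins with 3 to 5 genes gave -0.28 (-0.29 to -0.28), -0.31 (-0.32 to -0.30), -0.27 (-0.27 to -0.26) and -0.19 (-0.20 to -0.19). Bins with 1 or 2 genes lay between -0.06 and -0.03, and bins with 0 genes between 0.04 and 0.08. The gene-dense bins were therefore lowest of these sets in each class, and their intervals did not overlap those of bins with 3 to 5 genes. Scaled to equal totals of all contacts, the ratios moved to -0.42 within a bin, -0.41 for local contacts, -0.50 for cis contacts over 1 Mb and -0.63 between chromosomes, so the direction held but the order of the classes turned.

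**Figure D1:**
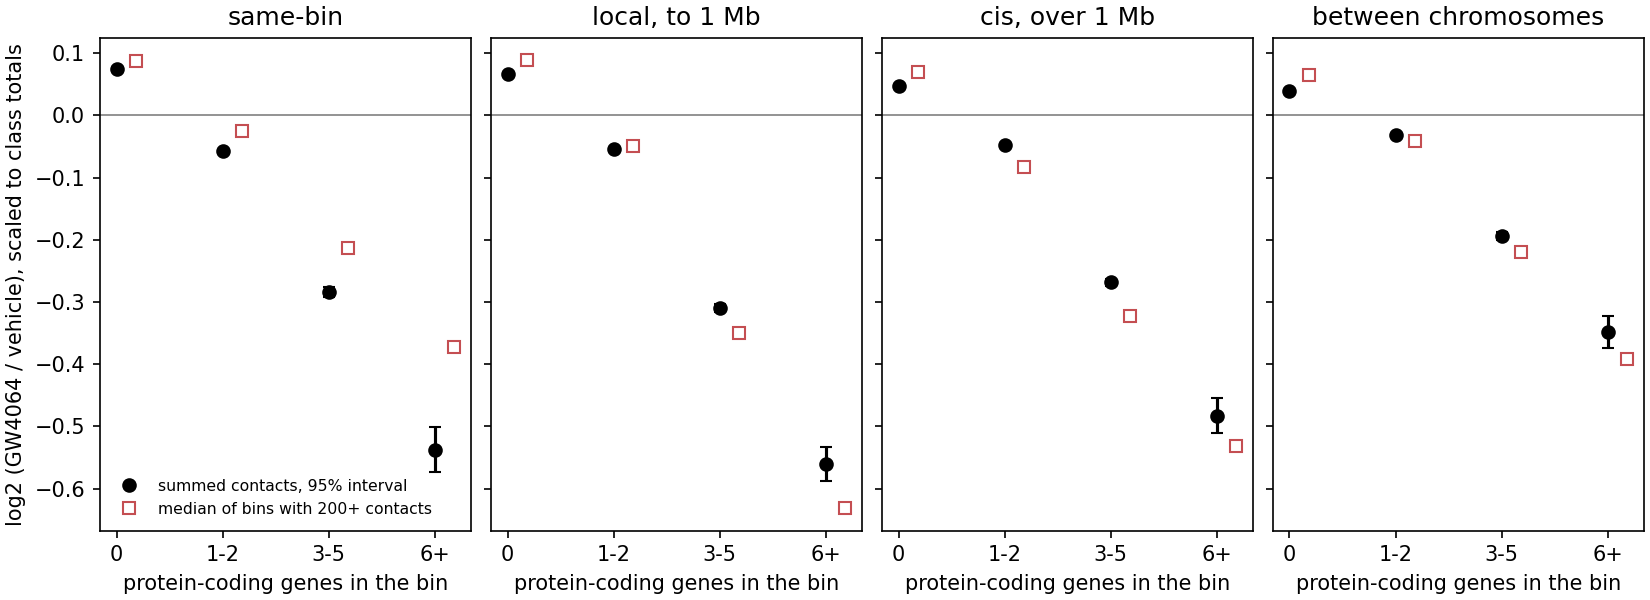
Log2 ratio of GW4064 to vehicle, scaled to class totals (vertical axis), by number of protein-coding genes in the bin (horizontal axis), in one panel for each contact class. Filled circles are ratios of summed contacts with 95% counting intervals, and open squares are medians of bins with at least 200 contacts of the class. Gene-dense bins (6+) sit lowest in each panel, from -0.56 for local contacts to -0.35 between chromosomes.

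Single bins were compared when they held at least 200 contacts of a class over both libraries, and a bin was counted as lower when its scaled ratio was at least 1.5-fold lower in GW4064 and its interval excluded equality. For local contacts 128 of the 133 gene-dense bins could be compared and 74 of them were lower, where 3.34% of all autosome bins compared were lower. None was at least 1.5-fold higher, against 0.189% of autosome bins. Their median log2 ratio was -0.63, with quartiles of -0.77 and -0.43, and the median over autosome bins was 0.01. The interval lay below equality in 110 bins and above it in 1, where 15.0% and 10.3% of autosome bins had such intervals. When scaled to equal totals of all contacts, 35 bins were lower by this rule and 0 higher. The shares of autosome bins under that scaling were not counted.

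For cis contacts over 1 Mb, 34 of 107 gene-dense bins were lower against 2.25% of autosome bins, and for contacts between chromosomes 21 of 130 were lower against 0.77%. Only 41 gene-dense bins reached 200 contacts within the bin, and 10 of these were lower against 1.41% of autosome bins. The median within-bin ratio of those 41 was -0.37, less low than the ratio of -0.54 for the sum over all 133 bins. None was higher in these 3 classes, where 0.0637%, 0.254% and 0.666% of autosome bins were. Among the 40 gene-dense bins that reached 200 contacts in all 4 classes, 34 (85.0%) had 4 ratios below equality, and 17.6% of the 39624 such autosome bins did.

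Per bin, the vehicle library held a lowest count of 17, a median of 168 and a highest of 412 local contacts in gene-dense bins. The GW4064 library held a lowest of 20, a median of 156 and a highest of 452. Over all autosome bins the median was 191 in vehicle and 270 in GW4064. Counting each contact once for each of its bins, the mean number of local contacts of a gene-dense bin was 0.933 times the autosome mean in vehicle and 0.632 times in GW4064. Its contacts between chromosomes were 1.04 times that mean in vehicle and 0.814 times in GW4064, and its cis contacts over 1 Mb 0.592 and 0.424 times. Gene-dense bins thus had near average local and interchromosomal contacts in the vehicle library and fewer than average in the GW4064 library, while their cis contacts over 1 Mb were below average in both.

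**Figure D2:**
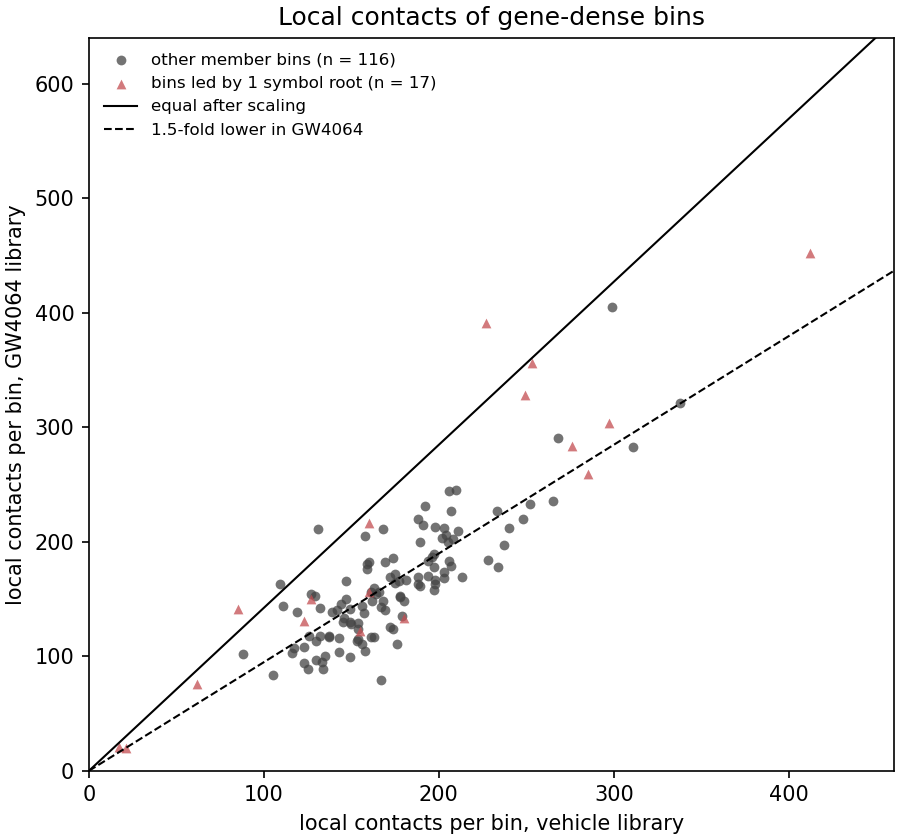
Local contacts of each gene-dense bin in the vehicle library (horizontal axis) and the GW4064 library (vertical axis), in raw contacts per bin. Circles and triangles separate the 116 bins with mixed genes from the 17 led by 1 symbol root, the solid line marks equality after scaling and the dashed line a 1.5-fold lower value. Most points lie under the solid line, and 74 bins that could be compared lie under the dashed line with intervals that exclude equality.

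The composition of the contacts moved in the direction of the whole libraries, and by less for local contacts and contacts between chromosomes. Contacts between chromosomes made up 32.0% (31.7% to 32.3%) of those of gene-dense bins in vehicle and 29.3% (29.0% to 29.6%) in GW4064, against 25.5% and 21.2% over all autosome bins. Local contacts made up 27.4% (27.1% to 27.7%) and 29.3% (28.9% to 29.6%), against 24.2% and 27.3%. Cis contacts over 1 Mb took 25.8% and 25.7% in gene-dense bins, less than the 35.9% and 35.8% over all autosome bins. The within-bin share was 14.8% and 15.7%, close to the 14.3% and 15.7% of autosome bins.

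Among the 5 bins with the lowest local ratios, the first, chr10:79950001-80000000, holds Arid3a (a DNA-binding factor), Wdr18, Cnn2 and Abca7 (a lipid transporter) and had 167 local contacts in vehicle and 79 in GW4064, a log2 ratio of -1.59 (-1.99 to -1.19). Next was chr7:45450001-45500000 with Gys1 (muscle glycogen synthase), Ftl1 (ferritin light chain), Bax (which promotes apoptosis) and Nucb1, at 176 and 111 contacts and -1.17 (-1.53 to -0.82). On the same chromosome, chr7:45700001-45750000 with Rpl18, Dbp (a transcription factor of circadian output), Sphk2 and Sult2b1 held 134 and 89, a ratio of -1.10 (-1.50 to -0.70). The GW4064 count was below the vehicle count in all 3 of these bins before any scaling.

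The other 2 lie on chromosome 17. The Daxx, Tapbp (tapasin, which loads peptides on MHC class I), Zbtb22 and Rgl2 bin at chr17:33900001-33950000 held 149 and 99 local contacts, a log2 ratio of -1.10 (-1.48 to -0.72). The bin chr17:24850001-24900000, with Igfals (which carries insulin-like growth factors in blood), Hagh, Fahd1 and Nubp2, held 158 and 105 and also gave -1.10 (-1.47 to -0.73). Cis contacts over 1 Mb were lower in all 5 bins, from 137 and 72 at Daxx (-1.26, -1.69 to -0.84) to 109 and 94 at Rpl18 (-0.55, -0.96 to -0.13). The within-bin counts of these 5 bins were also lower in GW4064, from 79 and 74 at Daxx to 57 and 31 at Rpl18.

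Of the 5 bins with the highest local ratios, 3 were led by 1 symbol root. The bin chr16:89250001-89300000, with Gm35174, Gm35257, Gm35342 and Gm35427, held 227 local contacts in vehicle and 391 in GW4064, a log2 ratio of 0.28 (0.04 to 0.52), and was the only gene-dense bin compared whose interval lay above equality. At chr10:77750001-77800000, with Tspear, Gm9736, Gm3233 and Gm3238, the counts were 85 and 141 and the ratio 0.22 (-0.18 to 0.63). The trace amine receptor bin at chr10:23950001-24000000, with Taar3, Taar4, Taar5 and Taar6, had 253 and 356 contacts and -0.02 (-0.25 to 0.22). The rule on left-out families was applied to gene symbols and their synonyms. Whether the Gm genes of the first 2 of these bins belong to a left-out family was not settled. Their place among the highest values depends on it, as does the only interval above equality. Both Gm bins are among the 17 led by 1 symbol root, and without those 17 the summed local ratio was -0.61 (-0.63 to -0.58). In the 2 Gm bins and the Taar bin the GW4064 count was above the vehicle count before any scaling. The local contacts of the whole library also rose, from 4783866 to 6808739, so a higher raw count alone shows no relative rise.

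The remaining 2 hold genes that most cells use. The bin chr18:36750001-36800000, with Ik (a splicing factor), Hars and Hars2 (histidyl-tRNA synthetases of cytosol and mitochondria) and Zmat2, held 131 and 211 local contacts and a log2 ratio of 0.18 (-0.14 to 0.50). The bin chr2:181650001-181700000, with Prpf6 (a splicing factor), Sox18 (an endothelial transcription factor), Tcea2 and Rgs19, held 109 and 163 and gave 0.07 (-0.29 to 0.43). In that bin the contacts within the bin went the other way, with 94 in vehicle and 83 in GW4064 (-0.65, -1.09 to -0.21). Their intervals for local contacts included equality.

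The 17 bins led by 1 symbol root were less low than the other 116. Summed local contacts were 2926 in vehicle and 3382 in GW4064 for the former, a log2 ratio of -0.30 (-0.37 to -0.23), and 19354 and 18106 for the latter, a ratio of -0.61 (-0.63 to -0.58). Contacts between chromosomes gave -0.12 (-0.19 to -0.06) and -0.39 (-0.42 to -0.36). The split also ran within the symbol roots: the Surf bin of chromosome 2, with Rpl7a, Med22, Surf1 and Surf4, had 180 and 133 local contacts (-0.95, -1.28 to -0.61), and the Hoxd bin on the same chromosome, which holds developmental patterning genes, had 249 and 328 (-0.11, -0.35 to 0.13). The Hoxa bin of chromosome 6 had 276 and 284 (-0.47, -0.71 to -0.22). The Surf, Hoxa and Hoxd bins were picked as examples after their values were seen. For the 28 autosome bins that met the gene number and were left out for a named family, the local ratio was -0.09 (-0.15 to -0.03).

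The 6 bins with the most genes came from both kinds. The bin of 12 genes, chr4:88750001-88800000, with Ifnz, an interferon, and neighbours named Gm13271, Gm13272 and Gm13275, held only 62 and 76 local contacts, and its ratio of -0.22 had an interval from -0.72 to 0.29. With 10 genes, chr19:6950001-7000000 holds Bad (which promotes apoptosis), Plcb3, Vegfb (a growth factor of blood vessels) and Fkbp2, and had 135 and 100 local contacts, a ratio of -0.94 (-1.33 to -0.56). Its 137 and 61 cis contacts over 1 Mb gave -1.50 (-1.96 to -1.05). A second bin of 10 genes, chr19:6050001-6100000 with Syvn1 (a ubiquitin ligase of the endoplasmic reticulum), Mrpl49, Fau and Vps51, had 175 and 172 local contacts and -0.53 (-0.85 to -0.22). The third, chr9:107550001-107600000 with Hyal1 and Hyal2 (hyaluronidases), Rassf1 and Sema3b, had 116 and 103 and -0.68 (-1.08 to -0.29). The Gm35342 bin and a Ugt1a bin complete the 6.

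One bin stood apart in coverage. The 11 gene models of chr1:88200001-88250000 are mostly Ugt1a1 and its relatives, the bilirubin and xenobiotic glucuronosyltransferases of liver, which are alternative first exons of 1 locus that share their last exons. The bin held 6917 contacts over both libraries, rank 3 among autosome bins, and the next gene-dense bin held 2368. Its local contacts were 412 and 452, a log2 ratio of -0.38 (-0.57 to -0.18), but its contacts between chromosomes, 1488 and 1514, gave -0.05 (-0.15 to 0.06). Without it the summed ratio of all gene-dense bins was -0.56 for local contacts and -0.37 for contacts between chromosomes.

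This bin is the last of a run of 3, and its neighbours overlap Ugt1a10, Ugt1a9, Ugt1a8 and Ugt1a7c. They held 297 and 304 local contacts (-0.48, -0.71 to -0.24) and 285 and 259 (-0.65, -0.90 to -0.40). The other run of 3 lies at chr11:69800001-69950000. Along the chromosome, local contacts were 172 and 169, 207 and 227, and 189 and 200, with ratios of -0.53 (-0.85 to -0.22), -0.38 (-0.65 to -0.10) and -0.43 (-0.72 to -0.13). It runs from Fgf11, Tmem102 and Nlgn2 through Plscr3 and Kctd11 to Eif5a (a translation factor) and Slc2a4 (the insulin-responsive glucose transporter of muscle and fat).

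Genes were grouped by lists to see which functions the gene-dense bins held. For the counts that follow, 57.8% of all gene-dense bins compared and 3.34% of autosome bins were lower. Of all autosome protein-coding genes, 4.18% lay in a gene-dense bin. Ribosomal protein genes were in 9 gene-dense bins (9 of 84 listed genes, 10.7%). Of the 9 bins, 7 were lower by the rule above, with log2 ratios from -1.10 to -0.34 and a median of -0.70. The Rps2 bin at chr17:24700001-24750000, which also holds Ndufb10 of respiratory complex I, had 207 and 179 local contacts (-0.72, -1.02 to -0.42). Genes of RNA polymerases, TFIID and Mediator were in 6 bins, 3 of them lower, with a median of -0.65, and Med19 marked their upper end with 299 and 405 contacts (-0.07, -0.29 to 0.15). Oxidative phosphorylation genes were in 4 bins (2 lower, median -0.62), splicing genes in 4 (1 lower, median -0.36) and proteasome genes in 3 (0 lower, median -0.55). Genes with zinc finger symbols were in 4 bins, 3 of them lower (median -0.69). Only 4 of 415 such genes (0.964%) lay in a gene-dense bin. The median over the 128 gene-dense bins compared was -0.63. Bins named from these lists, other than those of FXR genes, were picked as examples after their values were seen.

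Of the genes that respond to FXR in liver, 4 of 36 (11.1%) lay in 3 gene-dense bins, against 4.18% of all autosome protein-coding genes. The Mafg bin (chr11:120600001-120650000, a small Maf repressor of bile acid synthesis genes) had 179 local contacts in vehicle and 135 in GW4064, a log2 ratio of -0.92 (-1.25 to -0.59). The Apoc2 and Apoe bin (chr7:19650001-19700000, apolipoproteins) had 155 and 122, a ratio of -0.85 (-1.21 to -0.50). The bin of Pltp, the phospholipid transfer protein (chr2:164800001-164850000), had 144 and 146, a ratio of -0.49 (-0.83 to -0.15). All 3 lay on the same side as, and within the range of, the other gene-dense bins.

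Secreted proteins of hepatocytes were represented by 7 of 54 genes in 4 bins, 3 of them lower where 57.8% of gene-dense bins were, with ratios from -1.10 at Igfals to -0.45 at Vtn, which held 203 and 212 local contacts. Cfb, complement factor B, lay in a bin with 161 and 117 local contacts (-0.97, -1.33 to -0.62). The liver nuclear receptor genes Esrra, Nr2f6 and Rxrb lay in 3 bins, 1 of them lower, with ratios from -0.67 to -0.48. Immediate early and stress genes were in 4 bins (3 lower, median -0.75). The lipid and cholesterol synthesis list had 1 gene in these bins, Dgat1, in a bin with Hsf1 and 197 and 158 local contacts (-0.83, -1.14 to -0.52). None of 29 bile acid synthesis and transport genes lay in a gene-dense bin, and a list this short cannot tell 0 from the share of 4.18%. Of genes used mainly in neurons, Grin1 and Slc17a7 lay in 2 bins, both lower, with ratios of -0.60 (-0.98 to -0.23) and -0.99 (-1.39 to -0.60). These ratios belong to bins that also hold other genes, such as Anapc2 and Pih1d1.

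The lower ratio extended past the gene-dense bins themselves and faded with distance. Counting each contact once for each of its bins, the log2 ratio of local contacts was -0.56 (-0.59 to -0.54) in the gene-dense bins and -0.45 (-0.47 to -0.43) in the 223 bins that lay 50 kb away. At 500 kb it was -0.20 (-0.22 to -0.17) over 131 bins and at 1000 kb -0.17 (-0.20 to -0.14) over 112. Bins 2050 to 5000 kb away gave -0.04, and bins farther away 0.02. Contacts between chromosomes faded in the same way, from -0.35 (-0.37 to -0.32) to -0.24 (-0.26 to -0.23) at 50 kb and -0.11 (-0.13 to -0.08) at 500 kb. Gene number fades along the same path, from a mean of 6.65 genes in a gene-dense bin to 2.86 at 50 kb and 1.49 at 500 kb. A local contact reaches up to 1 Mb, so neighbouring bins share part of their local contacts.

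**Figure D3:**
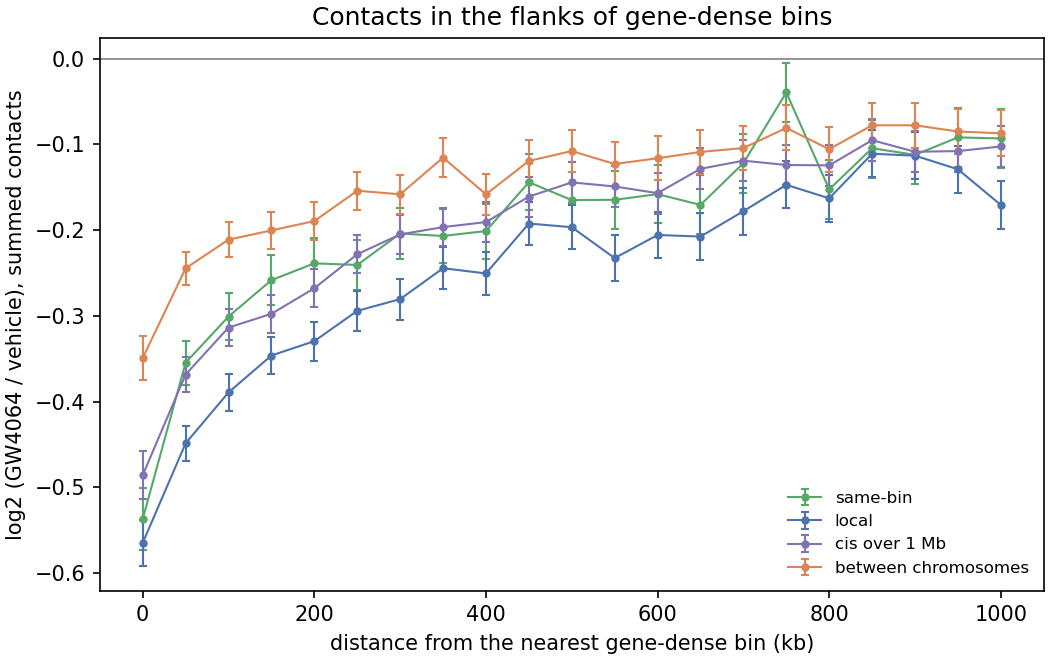
Log2 ratio of GW4064 to vehicle of summed contacts (vertical axis) by distance from the nearest gene-dense bin in kb (horizontal axis), with 95% counting intervals and a line for each contact class. Local contacts start at -0.56 in the gene-dense bins, lie at -0.45 at 50 kb and -0.20 at 500 kb.

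To set a bin's own genes beside those around it, bins with at least 25 genes in the 21 bins centred on them were compared. That count includes the bin's own genes and ran up to 76, so the surroundings of the sets were not matched. In that surrounding the median log2 ratio of local contacts was -0.14 for 198 bins with 0 genes of their own, -0.31 for 1830 bins with 1 or 2, -0.46 for 1089 bins with 3 to 5 and -0.64 for 116 gene-dense bins. Contacts between chromosomes gave -0.09, -0.18, -0.27 and -0.41 in the same order. For gene-dense bins with 13 to 24 genes around them the median local ratio was -0.59 over 11 bins, against -0.64 with 25 or more. The other classes differed more, with medians within a bin of -0.17 (5 bins) and -0.43 (35 bins). Cis contacts over 1 Mb gave -0.32 and -0.55, and contacts between chromosomes -0.17 and -0.41. Summed local contacts gave -0.45 and -0.59, and the set with 13 to 24 genes holds the 3 Ugt1a bins and the Taar bin. In the dense surrounding the ratio was lower the more genes a bin held, but own genes and surroundings were not separated.

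Within the gene-dense bins themselves, the number of genes in the bin had no rank relation with the local ratio (Pearson's r 0.04, Spearman's rho 0.00, 128 bins). The number of genes in the 21 bins around it had a weak negative one (r -0.31, rho -0.33). These are descriptions across bins of the same 2 libraries, and neighbouring bins share contacts. Around the threshold of the rule, the 88 bins with 6 genes had a summed local ratio of -0.56 (-0.60 to -0.53) and the 202 bins with 5 genes, just outside it, -0.48 (-0.50 to -0.46). Bins with 7 genes gave -0.61 (-0.67 to -0.54) and bins with 8 or more -0.51 (-0.57 to -0.44).

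The lower ratio recurred on most chromosomes. Gene-dense bins were present on 18 autosomes, and their local ratio was below that of the rest of the chromosome on 17 of them, with intervals below equality on 16. The lowest was on chromosome 15, where 5 bins held 875 and 746 local contacts (-0.74, -0.88 to -0.60) and the rest of the chromosome gave 0.005. Chromosome 17 followed with 15 bins, 2412 and 2081 contacts and -0.72 (-0.81 to -0.64). The exceptions were chromosome 16, where 2 bins, 1 of them the Gm35342 bin, gave 0.05 (-0.14 to 0.24), and chromosome 18, where 2 bins gave -0.09 (-0.30 to 0.12). Whether the Gm35342 bin belongs to a left-out family was not settled, so the chromosome 16 value depends on that. In the other 3 classes gene-dense bins lay below the rest of their chromosome on 18 of 18.

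**Figure D4:**
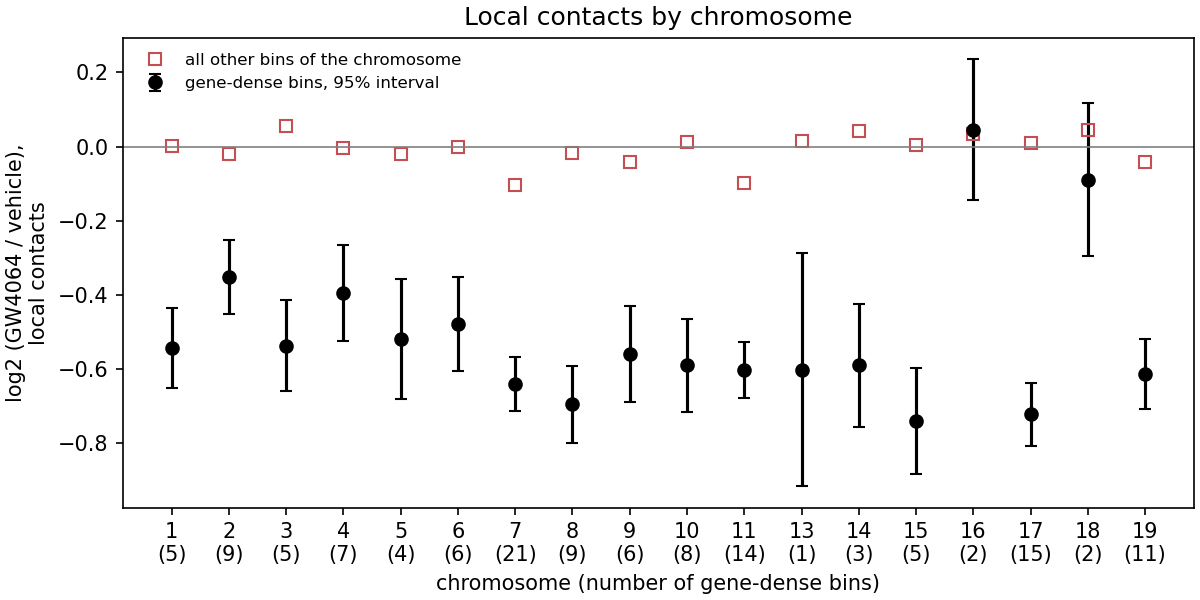
Log2 ratio of GW4064 to vehicle for local contacts (vertical axis) on each chromosome, with the number of gene-dense bins in brackets (horizontal axis). Filled circles are gene-dense bins with 95% counting intervals, open squares all other bins of the chromosome. Circles lie below squares on 17 of 18 chromosomes, and chromosome 16 is the exception.

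Gene-dense bins met each other far more often than expected in both libraries. Between gene-dense bins over 2 Mb apart on the same chromosome, 464 pairs held 101 contacts in vehicle, where 19.6 were expected from the distance and from the long-range contacts of both bins, an observed over expected of 5.15 (4.19 to 6.25). In GW4064 they held 54 where 12.5 were expected, 4.31 (3.24 to 5.62). The ratio of these 2 values was 0.838 (0.591 to 1.18), so no difference between the libraries was detectable at this depth. With the expectation taken from distance alone, the values were 1.89 (1.54 to 2.29) in vehicle and 0.838 (0.629 to 1.09) in GW4064, a ratio of 0.444 (0.313 to 0.624). Among gene-dense bins the enrichment in GW4064 thus depended on allowing for their low coverage.

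Between chromosomes, 7874 pairs of gene-dense bins held 130 contacts in vehicle where 36.7 were expected from the contacts of both bins, an observed over expected of 3.54 (2.96 to 4.21). In GW4064 they held 86 where 23.8 were expected, 3.61 (2.89 to 4.46), and the ratio was 1.02 (0.768 to 1.35). Taking the expectation from the number of bin pairs gave 3.64 in vehicle and 2.35 (1.88 to 2.91) in GW4064, a ratio of 0.646 (0.486 to 0.855).

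The preference followed the gene number of the partner. Gene-dense bins met bins with 3 to 5 genes over 2 Mb away at 2.72 times (2.61 to 2.83) the expected number in vehicle and 3.00 times (2.87 to 3.14) in GW4064, a ratio of 1.10 (1.04 to 1.17). With bins of 1 or 2 genes the values were 1.22 and 1.27, and with bins of 0 genes 0.584 (0.567 to 0.601) and 0.607 (0.590 to 0.626). Between chromosomes the values were 2.198 and 2.378 for bins with 3 to 5 genes (ratio 1.08, 1.02 to 1.14) and 0.685 and 0.655 for bins with 0 genes (ratio 0.956, 0.924 to 0.989). Among bins with 3 to 5 genes over 2 Mb apart observed over expected was 2.07 (2.04 to 2.10) and 2.26 (2.22 to 2.29), less than among gene-dense bins. The order of the partners by gene number was the same in both libraries. The values above allow for coverage: by raw count gene-dense bins had 2463 and 2000 contacts with bins of 3 to 5 genes over 2 Mb away. Among bins with 3 to 5 genes the ratio of the libraries was 1.09 (1.07 to 1.11), so the higher value in GW4064 was not particular to gene-dense bins.

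**Figure D5:**
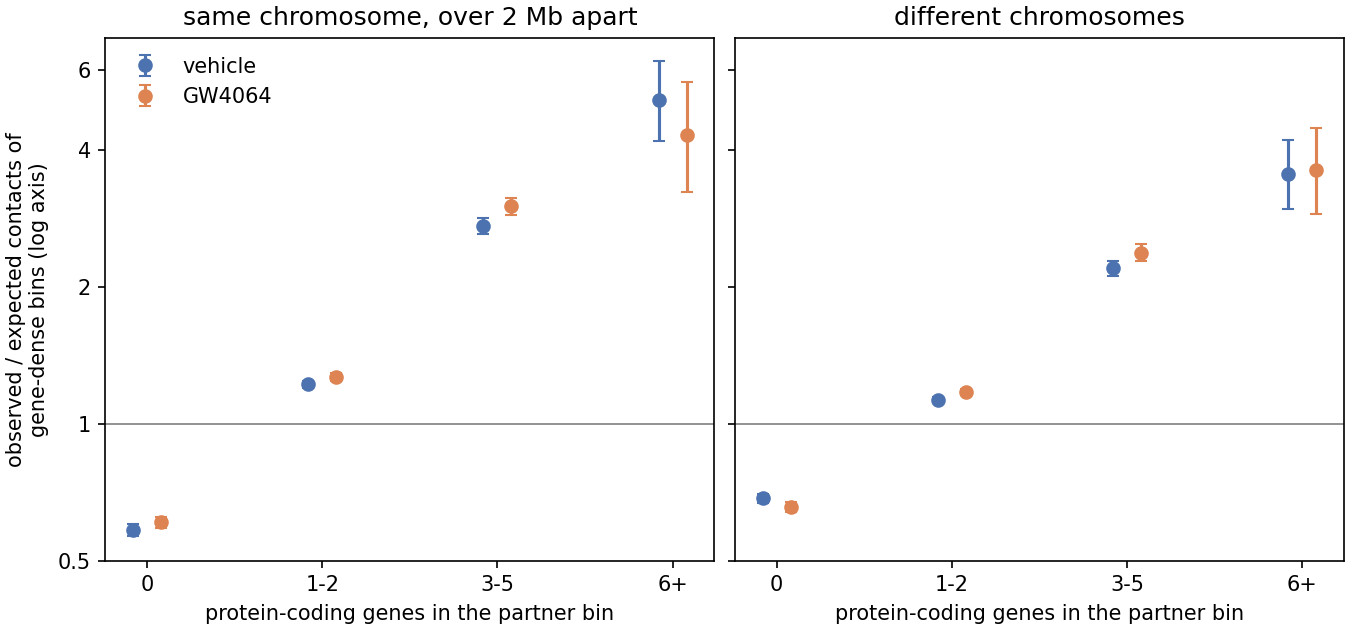
Observed over expected contacts of gene-dense bins (vertical log axis) by number of protein-coding genes in the partner bin (horizontal axis), for partners over 2 Mb away on the same chromosome and on other chromosomes. Points are the vehicle and GW4064 libraries with exact Poisson 95% intervals. Values climb from 0.584 and 0.607 with 0 genes to 5.15 and 4.31 among gene-dense bins on the same chromosome, and the intervals of the libraries overlap there.

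Split by distance, pairs of gene-dense bins 2 to 5 Mb apart held 12 and 7 contacts, pairs 5 to 20 Mb apart 37 and 30, and pairs over 20 Mb apart 52 and 17. Observed over expected at over 20 Mb was 6.50 (4.86 to 8.52) in vehicle and 3.30 (1.92 to 5.29) in GW4064, a ratio of 0.508 (0.275 to 0.893). The other 2 bands gave ratios of 0.967 (0.322 to 2.66) and 1.25 (0.748 to 2.08), and no allowance was made for looking at 3 bands. Chromosomes 7 and 17 held 33 and 21 of the 101 vehicle contacts and 16 and 18 of the 54 GW4064 contacts. On chromosome 17 observed over expected was 7.18 (4.45 to 10.98) in vehicle and 11.9 (7.07 to 18.9) in GW4064. On chromosome 7 it was 3.89 (2.68 to 5.47) and 2.67 (1.53 to 4.34). Few contacts were expected, 2.92 and 1.51 on chromosome 17 and 8.47 and 5.99 on chromosome 7. No chromosome reached 10 expected contacts in vehicle, so values of single chromosomes are uncertain.

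These contacts were spread thinly. The 101 vehicle contacts on the same chromosome lay in 85 pairs, and no pair held more than 2. The 54 GW4064 contacts lay in 50 pairs, with at most 3 in a pair. Over both libraries the pair with the most contacts joined the Rps2 and Ndufb10 bin with the Daxx and Tapbp bin, 9.2 Mb apart on chromosome 17, with 1 contact in vehicle and 3 in GW4064. Next, each with 2 and 1, came pairs that included the Mdc1 and Dhx16 bin with the Mrpl2 and Cul7 bin on chromosome 17 and the Mrpl34 and Plvap bin with the Samd1 and Il27ra bin on chromosome 8. No pair between chromosomes held more than 2 contacts over both libraries, and 5 pairs held 2. Among these were the Fosl1 and Cfl1 bin of chromosome 19 with the Stub1 and Jmjd8 bin of chromosome 17 (0 and 2) and the Hgs and Mrpl12 bin of chromosome 11 with the Lamtor4 and Stag3 bin of chromosome 5 (2 and 0). Also among them were the Gfer and Syngr3 bin of chromosome 17 with the Prpf3 and Aph1a bin of chromosome 3 (0 and 2) and the Rin1 and Cd248 bin of chromosome 19 with the Irf7 and Drd4 bin of chromosome 7 (1 and 1). Of the gene-dense bins, 47 had no such contact over 2 Mb in vehicle and 70 had none in GW4064. Only 15 chromosomes held pairs over 2 Mb apart, so these counts include bins that had no such partner.

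RefSeq promoter sequences matched 683 of the 860 genes, and 588 of these started inside a gene-dense bin. Of the 588, 309 (52.6%) were CpG-rich, meaning a GC content of at least 50% and a ratio of observed to expected CG of at least 0.6, against 47.3% of 16457 autosome promoters. In 93 (15.8%) another gene started on the opposite strand within 1000 bases upstream, as at Rpl18 and Sphk2, against 7.79% of autosome promoters. Bins chosen for many genes have closer starts by construction, so this share follows in part from the rule. Bins in which 50% or more of the promoters were CpG-rich had a median local ratio of -0.64 (79 bins), those with fewer -0.58 (32 bins) and those with none -0.27 (7 bins, from -0.71 to 0.28). Across 118 bins the share of CpG-rich promoters and the local ratio had r -0.29 and rho -0.22. The part of base composition in the ratio was not tested.

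Motifs, none of which contains another, were searched on both strands of the 300 bases. The forkhead motif TGTTTAC was in 11 of the 588 promoters (1.87%) against 2.95% of autosome promoters, and the 11 bins with a match had a median local ratio of -0.60, against -0.62 for the 107 without. The AGGTCA element of nuclear receptors was in 83 (14.1%) against 14.4%. The ETS motif CCGGAAG was in 112 (19.05%) against 12.3%, and CCAAT was in 236 (40.1%) against 39.1%. Divergent promoters, more frequent here, can share bases, and a shared match then counts for both genes. The ETS motif also contains CG, and CpG-rich promoters were more frequent here. The part of either in the ETS share was not tested. Of the printed promoters, that of Daxx held the ETS motif and CCAAT, that of Cnn2 held CCAAT and that of Gm35342 held AGGTCA.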

How the data were processed

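Foxa2 HiChIP of liver was measured in 1 vehicle and 1 GW4064 library. Per the submitters' processing notes, the authors used HiC-Pro and Bowtie2 2.2.9 on mm10, and read filters and handling of duplicates are not stated in the sources used here. Matrices deposited by the authors hold raw contact counts for pairs of 50 kb bins, and the deposited bin tables hold bin positions and an index of no other unit. Genes and promoters are from RefSeq (GRCm38.p6). In the gene table, 105 autosome genes end within the first 2.95 Mb of a chromosome, where the deposited counts are 0, and were left out.

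Contacts were summed per bin and class over chromosomes 1 to 19 and X and scaled to class totals. Ratios have exact conditional binomial, shares exact Clopper-Pearson and observed over expected exact Poisson 95% intervals, for counting error only. Expected contacts over 2 Mb came from the mean at that distance on the chromosome and the long-range contacts of both bins (bins with at least 200 contacts). The members and lists were chosen with earlier results of these data known. Named bins are the 6 with the most genes, the 5 lowest and 5 highest local ratios, the 2 longest runs, the 4 top pairs of each kind and those with FXR-responsive genes. 1 pair named by this rule is not reported here. Methods were tested on simulated data. There the set had higher coverage than its surroundings and denser counts than here, so the low coverage of gene-dense bins was not tried. Software was scipy 1.17.1, pandas 2.3.3, numpy 2.4.6 and matplotlib 3.10.9 under Python 3.11.15. Alternatives covered the gene number, gene placement, scaling, reach of the classes, contact minimum and expectation.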

Additional observations from a re-analysis of the deposited data

How the results depend on the processing

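No paired analysis was possible because each group held 1 library. For the same reason no library could be left out. Of 78 values under alternatives, 49 stayed within the interval of the reported value or within 1.5 times the reported count, 27 moved and 2 reversed. 2 alternatives, without the bin of most contacts and without bins led by 1 symbol root, were chosen after seeing the data. At least 8 genes (21 bins) gave log2 ratios of -0.50 within a bin, -0.51 for local contacts, -0.38 for cis contacts over 1 Mb and -0.29 between chromosomes. Of 20 such bins compared 10 were lower, against 3.34% of autosome bins. With so few bins, contacts over 2 Mb gave observed over expected of 6.44 (0.16 to 35.9) in vehicle and 14.3 (0.36 to 79.4) in GW4064, a ratio of 2.21 (0.03 to 174). Between chromosomes they gave 5.65 in vehicle and 0 in GW4064 (upper bound 4.37), a ratio of 0 (upper bound 1.02). Placing a gene only in the bin of its midpoint (56 bins) gave 28 bins lower, against the same 3.34% of autosome bins. Contacts between chromosomes then gave 5.22 in vehicle. Scaling to all contacts gave -0.42 within a bin, -0.41 for local contacts and -0.63 between chromosomes, with 35 bins lower. The share of autosome bins lower under that scaling was not counted. Cis contacts over 5 Mb gave -0.44. Without the bins led by 1 symbol root the ratios were -0.58, -0.61, -0.55 and -0.39, and contacts between chromosomes reached 4.26 in vehicle and 4.75 in GW4064. Expecting contacts over 2 Mb from distance alone gave 1.89 in vehicle and 0.838 in GW4064, a ratio of 0.444, and expecting contacts between chromosomes from bin pairs gave 2.35 in GW4064 and a ratio of 0.646. The cause of the other moves was not tested. In each alternative 0 bins were at least 1.5-fold higher. With the main scaling only 0.189% of autosome bins were, so 0 among so few bins carries little weight. These counts of 0 are among the 49 values that stayed. Depth limits what contacts among gene-dense bins can show: the 101 and 54 contacts over 2 Mb lay in 85 and 50 pairs.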

Other observations

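Gene-dense bins also held contacts with the mitochondrial genome and chromosome Y, which enter no class above. Contacts with the mitochondrial genome numbered 111 in vehicle and 72 in GW4064, which is 0.132% (0.109% to 0.160%) and 0.0954% (0.075% to 0.120%) of the sum of these contacts and the bins' contacts with chromosomes 1 to 19 and X. Over all autosome bins these shares were 0.095% and 0.073%. Contacts with chromosome Y numbered 56 and 31, or 0.067% and 0.041% by the same reckoning, against 0.225% and 0.191% over all autosome bins.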
